A study of Homo sapiens with 8 samples.

Results

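CDC20, FZR1, FBXO5, UBE2C, UBE2S, SKP2, FBXW7, BTRC and DTL, 9 of the 18216 genes listed, were taken by name as genes of the ubiquitin ligases that drive the cell cycle. All 9 passed the filter on low values that left 14074 genes for testing, and the lowest read count of any of them in a library was 279. RNA was measured in IMR90, a line of human lung fibroblasts, here at passage 28. The groups were DMSO, the vehicle, and Nutlin-3a at 3 µg/mL for 6 h, 9 h and 12 h, with 2 libraries each. Nutlin-3a occupies the pocket of MDM2 that holds p53, so that p53 accumulates. The labels name no genetic change in any group, and no line lacking p53 was analysed here. All Nutlin-3a times were set against the same DMSO libraries, whose time in culture is not stated, so exposure time and culture time cannot be told apart. It is not stated that replicates were separate cultures, so p-values rest on the spread between libraries that may differ only technically.

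Ubiquitin ligases mark proteins for destruction by the proteasome, and a few of them give the cell cycle its direction. The anaphase-promoting complex or cyclosome, APC/C, needs a coactivator to hold its substrates: CDC20 in mitosis and FZR1, also called CDH1, from late mitosis through G1. Its E2 enzyme UBE2C places the initial ubiquitin and UBE2S extends the chain, while FBXO5, also called EMI1, blocks the complex in S and G2 phase. SCF ligases join a cullin to an F-box protein that picks the substrate: SKP2 takes CDK inhibitors such as CDKN1B, FBXW7 takes cyclin E and MYC, and BTRC takes beta-catenin, I-kappa-B and FBXO5 itself. DTL, also called CDT2, is the receptor through which the cullin ring ligase CRL4 removes CDT1 and CDKN1A at PCNA on DNA.

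The start regions of 7 of the 9 genes were found in RefSeq's promoter table (GRCh38.p14), as 12 windows of 300 bases from 250 before to 50 after a start. UBE2C and BTRC were not matched. Those of CDC20, FBXO5 and DTL are shown because these genes had the deepest falls among the matched genes, and that of FZR1 because this coactivator moved less. FBXO5 and FZR1 each had 2 windows, and the one holding the CHR element is printed. The windows were searched on both strands for the CHR element (TTTGAA or TTCGAA), for an E2F-type site (the word TTCCCGC, the word TTCGCGC, the word TTGCCGC and the word TTGGCGC) and for the decamer of the p53 response element. Capitals mark the matches to the CHR element and the E2F-type site, and no matches overlapped. The 4 windows, read 5′ to 3′ in the gene's direction, lie at chr1:43358731-43359030 on the plus strand for CDC20, chr6:152982992-152983291 on the minus strand for FBXO5, chr1:212035498-212035797 on the plus strand for DTL and chr19:3506061-3506360 on the plus strand for FZR1.
CDC20: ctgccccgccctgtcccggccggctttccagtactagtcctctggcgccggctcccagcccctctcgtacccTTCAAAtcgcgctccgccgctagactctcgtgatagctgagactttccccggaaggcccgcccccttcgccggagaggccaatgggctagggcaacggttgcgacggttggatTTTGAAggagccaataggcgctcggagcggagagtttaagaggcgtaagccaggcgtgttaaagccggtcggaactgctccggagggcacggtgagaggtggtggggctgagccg
FBXO5: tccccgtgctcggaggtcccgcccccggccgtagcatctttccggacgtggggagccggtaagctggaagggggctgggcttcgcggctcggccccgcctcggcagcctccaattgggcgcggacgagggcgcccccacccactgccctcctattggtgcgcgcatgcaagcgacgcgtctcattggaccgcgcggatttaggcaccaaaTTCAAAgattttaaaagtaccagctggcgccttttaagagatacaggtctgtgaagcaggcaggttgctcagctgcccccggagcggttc
DTL: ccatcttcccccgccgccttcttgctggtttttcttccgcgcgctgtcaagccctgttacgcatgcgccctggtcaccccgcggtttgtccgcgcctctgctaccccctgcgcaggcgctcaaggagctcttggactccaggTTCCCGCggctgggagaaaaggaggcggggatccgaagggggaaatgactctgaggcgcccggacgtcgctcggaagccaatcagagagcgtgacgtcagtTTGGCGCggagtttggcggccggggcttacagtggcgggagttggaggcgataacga
FZR1: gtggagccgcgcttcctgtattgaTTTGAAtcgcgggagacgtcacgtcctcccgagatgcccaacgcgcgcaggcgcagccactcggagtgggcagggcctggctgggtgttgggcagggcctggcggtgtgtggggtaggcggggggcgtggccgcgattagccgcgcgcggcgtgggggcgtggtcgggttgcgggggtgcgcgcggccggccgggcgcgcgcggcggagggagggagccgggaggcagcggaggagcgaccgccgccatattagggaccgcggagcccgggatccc
The CDC20 window held the CHR element at positions −178 to −173 and −65 to −60, counted with the start base as 1. In the FBXO5 window it lay at −40 to −35, and in the FZR1 window at −226 to −221. The DTL window held E2F-type sites at −108 to −102 and −7 to −1. The CHR letters occur in 16.4% and the E2F-type letters in 13% of 35114 RefSeq promoter windows of this length, so a match is common and is a description of letters only. A second FZR1 window, at chr19:3522706-3523005 on the plus strand, held E2F-type letters at −12 to −6 and 8 to 14, and 1 of the 4 FBXW7 windows held the CHR letters at −210 to −205. The other FBXO5 window and those of UBE2S and SKP2 held neither. The p53 decamer, present in 6.63% of all windows, was in none of the 12. At that share its absence from 12 windows is unremarkable. Only matches without a mismatch inside these windows were searched, so this too describes letters only. The deposited table gives no positions.

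Gene reads ranged from 21.9 to 33.6 M per library (M, 1e6 reads), and values are counts divided by the authors' size factor for each library, called normalized counts here. The DMSO pair differed more than the other pairs (SD of the log2 difference 0.174 over 11461 genes, against 0.118 to 0.129 for Nutlin-3a pairs). MDM2 and CDKN1A, p53 targets that check the treatment, had risen. The mean normalized count of MDM2 was 17756 in the 12 h libraries, against 2039 in DMSO, and that of CDKN1A was 71666 in the 12 h libraries, against 4812 in DMSO. All 10 fibroblast markers were in the table, with summed levels of 1107120 to 1122580 at 12 h, against 926912 to 934120 in DMSO, mostly COL1A1 and COL1A2. Taken singly at 12 h, 4 of the 10 had risen and 2 had fallen (limma, adjusted p under 0.05). Of all genes, 18.5% had risen and 21.4% had fallen. The median log2 change of the 10 was 0.053, and PDGFRA fell by −0.44. Of the epithelial markers 2 of 6 were listed, with sums of 19.2 to 31.3 over all libraries, and of the endothelial markers 3 of 4, with sums of 23.7 to 59.6. Of the immune markers, CD68 averaged 925 in the 12 h libraries, against 815 in DMSO. PTPRC averaged 3.61 in the 12 h libraries, against 3.66 in DMSO, near the floor of 3 reads, and CD3E was not listed. Smooth muscle and pericyte markers summed to 10208 to 10539.8 at 12 h, against 7029.6 to 7081 in DMSO, mostly CSPG4. The part of these differences in the results below was not tested. In bulk RNA, fewer cells that express a gene and less RNA per cell cannot be told apart.

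After 12 h of Nutlin-3a, 7 of the 9 genes had fallen (limma, adjusted p under 0.05 over all genes tested), where 21.4% of all genes had, 1 had risen, where 18.5% had, and BTRC was not called. At 9 h, 7 had fallen and 2 had risen, against 19.1% and 16.2% of all genes. At 6 h, 8 had fallen and 1 had risen, against 20.6% and 16.1% of all genes. The 8 include FZR1 and UBE2S, whose calls at 6 h were both lost with DESeq2, in the authors' deposited table and in other alternatives given below. At 9 h the fall of FZR1 and the rise of BTRC were likewise lost with DESeq2, in the deposited table and in other alternatives. The median log2 change of the 9 was −0.56, −0.92 and −1.09 at 6, 9 and 12 h, beside −0.012, 0.01 and 0.011 over all genes tested. Falls of at least 2-fold numbered 2 at 6 h (FBXO5 and DTL), 4 at 9 h (with CDC20 and UBE2C) and 5 at 12 h (with SKP2). The 3 comparisons share the DMSO libraries. The genes together took 258 to 269.6 ppm of gene reads (parts per 1e6) at 12 h, against 611 to 631 ppm in DMSO.

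**Figure D1:**
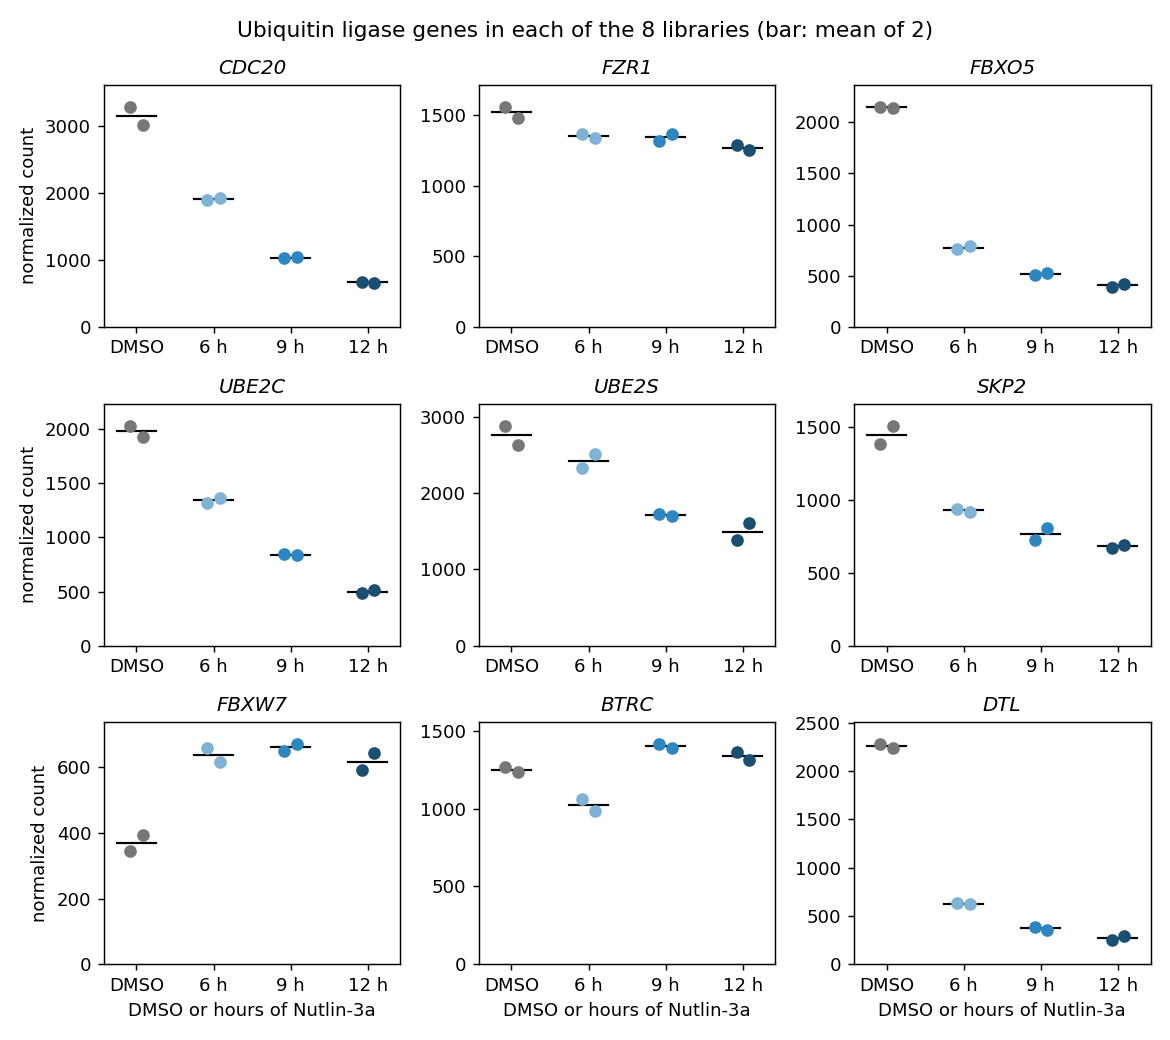
Normalized count of each gene (vertical axis, from 0) in every library of DMSO and of 6, 9 and 12 h of Nutlin-3a, with a bar at the mean of 2. CDC20, FBXO5, UBE2C and DTL step down at each time, FZR1 stays between 1251 and 1559, and FBXW7 lies above DMSO at all 3 times.

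CDC20, the mitotic coactivator of APC/C, had 3282 and 3019.9 normalized counts in DMSO, 1889 and 1928 at 6 h, 1029 and 1036 at 9 h and 672 and 659 at 12 h of Nutlin-3a. The levels went down with each time, and no groups overlapped. Its log2 change from DMSO (± SE of the limma fit) was −0.72 ± 0.058 (adjusted p = 4.46e-09) at 6 h, −1.61 ± 0.058 (adjusted p = 9.63e-15) at 9 h and −2.24 ± 0.058 (adjusted p = 2.75e-17) at 12 h, and its level at 12 h was 4.73-fold lower than in DMSO. The decline went on between the times, with −0.89 at 9 h against 6 h and −0.63 at 12 h against 9 h (adjusted p = 2.18e-09 and 6.00e-07). Ordered from the lowest log2 change of 14074 genes, CDC20 stood at place 585 at 6 h, 111 at 9 h and 82 at 12 h.

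FZR1, the coactivator of late mitosis and G1, had 1559 and 1481 normalized counts in DMSO, 1368 and 1340.5 at 6 h, 1317 and 1368 at 9 h and 1288 and 1251 at 12 h of Nutlin-3a. All Nutlin-3a libraries lay below both DMSO libraries, but the 3 Nutlin-3a groups came close to each other, and those at 6 and 9 h overlapped. The fall was called at 12 h, with a log2 change of −0.26 ± 0.057 (adjusted p = 0.00107), which left 83.5% of the DMSO level. The smaller changes at 6 h (−0.17 ± 0.057, adjusted p = 0.0279) and 9 h (−0.18 ± 0.057, adjusted p = 0.0192) were called too. Over the alternatives the adjusted p reached 0.137 at 6 h and 0.160 at 9 h, and both calls were lost with quantile normalization, without the intensity trend, in fits of 2 groups, with DESeq2, in the authors' deposited table and without DMSO replicate 1 or without either library of the time in question. No difference between Nutlin-3a times was called, the widest being −0.093 ± 0.057 at 12 h against 6 h (adjusted p = 0.236).

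The balance of the RNA of both coactivators, not of their proteins, was followed in each library. The log2 ratio of CDC20 over FZR1, set to 0 at its DMSO mean, was 0.023 and −0.023 in the DMSO libraries, −0.59 and −0.53 at 6 h, −1.41 and −1.45 at 9 h and −1.99 and −1.97 at 12 h. The 4 groups did not overlap. With 2 libraries against 2, an exact two-sided permutation test cannot go below p = 0.333, the value it gave at each time.

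FBXO5, the inhibitor that holds APC/C back before mitosis, had 2149 and 2139 normalized counts in DMSO, 762 and 786 at 6 h, 505 and 528 at 9 h and 394 and 418 at 12 h of Nutlin-3a. Most of the fall was present by 6 h, and all 4 groups were apart. Its log2 change from DMSO was −1.47 ± 0.066 (adjusted p = 8.55e-13) at 6 h, −2.05 ± 0.066 (adjusted p = 2.00e-15) at 9 h and −2.40 ± 0.066 (adjusted p = 7.51e-17) at 12 h, a 5.27-fold lower level at the last. It differed by −0.58 at 9 h against 6 h (adjusted p = 2.33e-06) and by −0.35 at 12 h against 9 h (adjusted p = 0.00250). The later of these calls was lost without the intensity trend and without 9 h replicate 2 or 12 h replicate 1, with an adjusted p of 4.82e-05 to 0.0771 over the alternatives. FBXO5 stood at place 34 from the lowest log2 change at 6 h, 32 at 9 h and 58 at 12 h. An antisense gene, AL080276.2, overlaps 157 bases of its exons in the GENCODE 29 annotation, and since the strand setting of the counting is not given, reads of the pair could be mixed.

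UBE2C, the E2 enzyme that starts ubiquitin chains on APC/C substrates, had 2035 and 1932 normalized counts in DMSO, 1317 and 1369 at 6 h, 843 and 840.4 at 9 h and 489 and 509.9 at 12 h of Nutlin-3a. Each group lay below the one before, without overlap. The log2 change was −0.56 ± 0.061 (adjusted p = 3.89e-07) at 6 h, −1.23 ± 0.061 (adjusted p = 1.46e-12) at 9 h and −1.99 ± 0.061 (adjusted p = 3.84e-16) at 12 h. The steps measured −0.67 at 9 h against 6 h (adjusted p = 1.24e-07) and −0.75 at 12 h against 9 h (adjusted p = 1.33e-07). Its place from the lowest log2 change was 952 at 6 h, 270 at 9 h and 138 at 12 h.

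UBE2S, the E2 enzyme that extends the chains, had 2885 and 2628 normalized counts in DMSO, 2329 and 2507 at 6 h, 1728 and 1694 at 9 h and 1379.9 and 1609.8 at 12 h of Nutlin-3a. The 9 h and 12 h libraries lay below the others, and no groups overlapped. The log2 change was −0.69 ± 0.068 (adjusted p = 6.90e-08) at 9 h and −0.89 ± 0.068 (adjusted p = 1.08e-09) at 12 h, 1.85-fold lower at 12 h. At 6 h it was −0.19 ± 0.068 (adjusted p = 0.0344), a call that was lost with TMM or quantile scaling, without the intensity trend, in a fit of 2 groups, with DESeq2, in the authors' deposited table and without DMSO replicate 1, 6 h replicate 1 or either 9 h library (adjusted p up to 0.279). Between 12 h and 9 h the difference of −0.20 ± 0.068 was not called (adjusted p = 0.126), but it was in a fit of those groups alone and without either DMSO library or 12 h replicate 2, down to an adjusted p of 0.00369. The log2 ratio of UBE2C over UBE2S, relative to its DMSO mean, was −0.35 and −0.40 at 6 h, −0.56 and −0.54 at 9 h and −1.02 and −1.18 at 12 h, with no overlap between groups (exact p = 0.333 at each time, the smallest possible). CDC20, UBE2C and UBE2S have annotated pseudogenes, and reads shared with them are uncertain.

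SKP2, the F-box receptor for CDK inhibitors, had 1381 and 1506 normalized counts in DMSO, 934 and 916 at 6 h, 725 and 803 at 9 h and 666 and 692 at 12 h of Nutlin-3a. The groups were apart, though the 9 h and 12 h values came close to each other. It fell at each time, with log2 changes from DMSO of −0.64 ± 0.069 (adjusted p = 3.05e-07) at 6 h, −0.92 ± 0.069 (adjusted p = 1.02e-09) at 9 h and −1.09 ± 0.069 (adjusted p = 5.18e-11) at 12 h. The step at 9 h against 6 h was −0.28 ± 0.069 (adjusted p = 0.00705), which was lost without the intensity trend and without 6 h replicate 1 or 9 h replicate 1 (adjusted p up to 0.153). The step at 12 h against 9 h, −0.17 ± 0.069, was not called (adjusted p = 0.235).

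FBXW7, the F-box receptor for cyclin E and MYC, was the only one of the 9 to lie above DMSO at every time, with 344 and 393 normalized counts in DMSO, 659 and 615 at 6 h, 650.2 and 669.6 at 9 h and 590.1 and 644 at 12 h of Nutlin-3a. All 6 Nutlin-3a libraries were above both DMSO libraries. The 6 h libraries overlapped with those at 9 h and at 12 h, while the 9 h libraries lay above the 12 h libraries. The log2 change was 0.79 ± 0.081 (adjusted p = 1.69e-07) at 6 h, 0.84 ± 0.081 (adjusted p = 5.19e-08) at 9 h and 0.74 ± 0.081 (adjusted p = 2.58e-07) at 12 h, or 1.73-, 1.79- and 1.67-fold higher. No difference between Nutlin-3a times was called, with log2 differences from −0.098 to 0.051 and adjusted p from 0.660 to 0.723. FBXW7-AS1 overlaps 127 bases of its exons on the other strand in GENCODE 29, with the same uncertainty as for FBXO5. The log2 ratio of SKP2 over FBXW7, relative to its DMSO mean, was −1.47 and −1.39 at 6 h, −1.81 and −1.71 at 9 h and −1.79 and −1.87 at 12 h, and the last 2 groups overlapped (exact p = 0.333 against DMSO at each time).

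BTRC, the F-box receptor for beta-catenin and FBXO5, moved in opposite directions with time, with 1267 and 1235 normalized counts in DMSO, 1064 and 986 at 6 h, 1413 and 1387 at 9 h and 1362 and 1309 at 12 h of Nutlin-3a. Both 6 h libraries lay below DMSO and both 9 h and 12 h libraries above it. It had fallen at 6 h, with −0.29 ± 0.06 (adjusted p = 7.27e-04), and was higher by 0.16 ± 0.06 (adjusted p = 0.0408) at 9 h and by 0.094 ± 0.06 (adjusted p = 0.228) at 12 h, where it was not called. The rise at 9 h was lost without the intensity trend, in a fit of 2 groups, with DESeq2, in the authors' deposited table and without DMSO replicate 2 or any 9 h or 12 h library (adjusted p up to 0.196), and at 12 h quantile normalization gave a call (0.16, adjusted p = 0.0436). The differences between times were larger than those from DMSO at 9 h, at 0.45 ± 0.06 (adjusted p = 1.57e-05) for 9 h against 6 h and 0.38 ± 0.06 (adjusted p = 4.88e-05) for 12 h against 6 h.

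DTL, the substrate receptor of CRL4 at replicating DNA, had the lowest values relative to DMSO of the 9 genes, with 2278 and 2243 normalized counts in DMSO, 630.4 and 622 at 6 h, 386 and 356 at 9 h and 248 and 290.3 at 12 h of Nutlin-3a. It lost most of its level by 6 h, and every group lay apart from the next. The log2 change was −1.85 ± 0.08 (adjusted p = 4.21e-13) at 6 h, −2.60 ± 0.08 (adjusted p = 8.76e-16) at 9 h and −3.07 ± 0.08 (adjusted p = 2.84e-17) at 12 h, where 11.9% of the DMSO level was left. From the lowest log2 change of the 14074 genes tested, DTL stood at place 13 at 6 h and at place 10 at 9 h and at 12 h. The later steps were −0.75 ± 0.08 (adjusted p = 8.64e-07) at 9 h against 6 h and −0.47 ± 0.08 (adjusted p = 7.98e-04) at 12 h against 9 h. The last call was lost without the intensity trend and without 12 h replicate 1 (adjusted p up to 0.0892 over the alternatives).

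**Figure D2:**
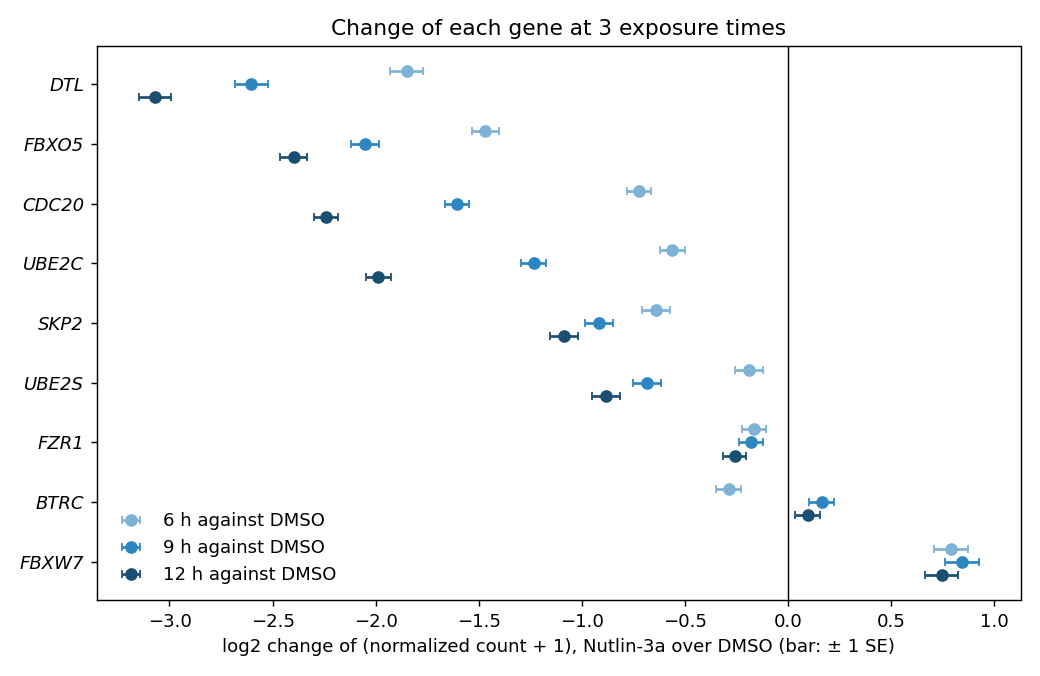
log2 change of normalized count + 1 from DMSO (horizontal axis) for each gene at 6, 9 and 12 h of Nutlin-3a, with bars of 1 SE. DTL, FBXO5, CDC20 and UBE2C reach −3.07, −2.40, −2.24 and −1.99 at 12 h, FBXW7 lies between 0.74 and 0.84, and BTRC changes side between 6 and 9 h.

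The share of the 12 h change present at the earlier times was compared across the genes that fell. At 6 h the libraries of FBXO5 had reached 60.3 and 62.2% of the 12 h log2 change, those of DTL 60.0 and 60.6% and those of SKP2 57.6 and 60.3%. In CDC20 the shares were 31.6 and 32.9%, in UBE2C 26.8 and 29.7% and in UBE2S 15.3 and 27.3%. The shares of FBXO5, DTL and SKP2 lay above those of CDC20, UBE2C and UBE2S in every library. At 9 h the shares were 85.5%, 84.8% and 84.5% for FBXO5, DTL and SKP2, beside 71.8%, 62.1% and 77.6% for CDC20, UBE2C and UBE2S. FZR1, whose change was small, had 58.3 and 69.7% at 6 h and 58.6 and 79.4% at 9 h, so its 6 h libraries lay above those of CDC20, UBE2C and UBE2S but its mean share at 9 h, 69.0%, was below those of CDC20 and UBE2S. These shares are a description without a test, and the difference between genes was not tested.

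Counted between the times, 6 of the 9 genes had fallen and 1 (BTRC) had risen at 9 h against 6 h, where 9.9% and 8.52% of all genes had. At 12 h against 9 h, 4 had fallen (CDC20, FBXO5, UBE2C and DTL) and 0 had risen, where 2.92% and 1.08% of all genes had. At 12 h against 6 h, 6 had fallen and 1 had risen, beside 17.1% and 14.4%. CDC20 and UBE2C had the largest differences of the 9 at 12 h against 6 h, −1.52 ± 0.058 and −1.43 ± 0.061, followed by DTL at −1.22 ± 0.08.

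**Figure D3:**
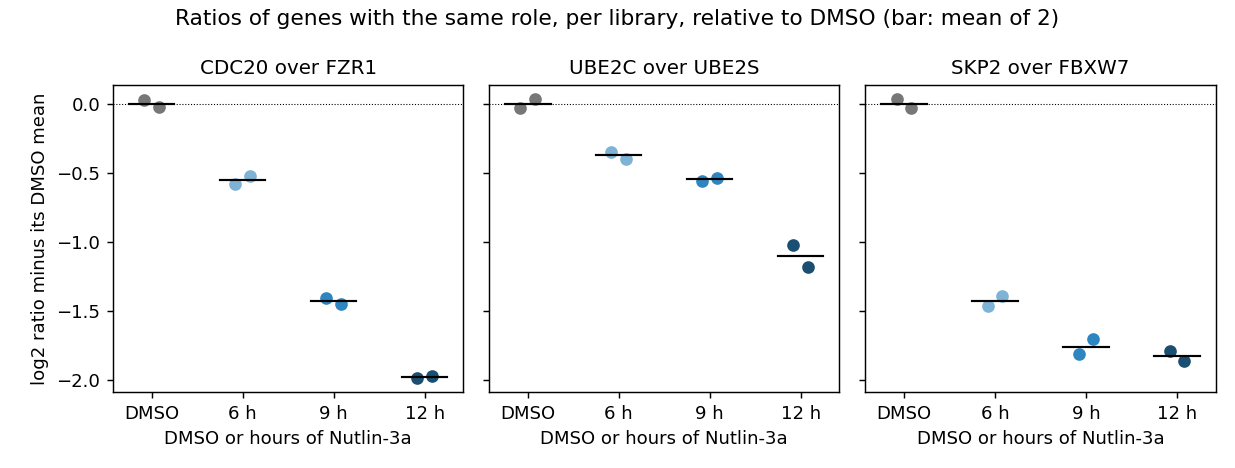
log2 ratio of CDC20 over FZR1, UBE2C over UBE2S and SKP2 over FBXW7 in each library minus its DMSO mean (vertical axis), for DMSO and 6, 9 and 12 h of Nutlin-3a, with a bar at the mean of 2. CDC20 over FZR1 and UBE2C over UBE2S move down at each time, to means of −1.98 and −1.10 at 12 h, while SKP2 over FBXW7 lies at −1.43 at 6 h and −1.83 at 12 h.

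Divided by exon length, the levels could be ordered between genes. In DMSO, CDC20 had 1795 and 1651 normalized counts per kb, above UBE2C with 1582 and 1502 and UBE2S with 1132 and 1031. FBXO5 (902 and 898), DTL (496 and 488), SKP2 (359.9 and 393), FZR1 (299 and 284), BTRC (206 and 200.4) and FBXW7 (51.4 and 58.7) followed, and no neighbours overlapped. At 12 h, UBE2S led with 542 and 632, then UBE2C with 379.9 and 396, CDC20 with 367 and 360.1 and FZR1 with 247 and 239.6. BTRC (221 and 212) came next, SKP2 (174 and 180.3) and FBXO5 (165 and 176) overlapped, and FBXW7 (88.1 and 96.2) stood above DTL (53.9 and 63.2), now the lowest. The lengths are those of merged exons of coding transcripts in GENCODE 29, which need not be the transcripts these cells use.

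The shared machinery of these ligases had medians near that of all genes. Of 15 genes listed for the APC/C core, which include the E2 enzyme UBE2D1, not a subunit, 4 had fallen and 2 had risen at 12 h. These counts were near the 21.4% and 18.5% of all genes, and the median log2 change was −0.026. The scaffold ANAPC1 fell, with −0.42, −0.47 and −0.48 at 6, 9 and 12 h, and so did the subunits CDC27 (−0.31 at 12 h) and CDC23 (−0.32). ANAPC16 rose, by 0.27 at 12 h, as did CDC16, by 0.13 (adjusted p = 0.0454). Of 12 core genes and regulators of SCF and CRL4, 3 had fallen and 1 had risen at 12 h, beside the same 21.4% and 18.5% of all genes (median 0.065). CKS1B, the cofactor of SKP2, fell the most of these, with −0.23, −0.49 and −0.74 at the 3 times. The cullin CUL1 (−0.26) and the exchange factor CAND1 (−0.16) fell less, and COPS6, a subunit of the COP9 signalosome, rose by 0.16.

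Among 13 other cell-cycle F-box, ligase and deubiquitinase genes, 9 had fallen and 0 had risen at 12 h, where 21.4% and 18.5% of all genes had. The median log2 change of the list was −0.42, −0.43 and −0.55 at 6, 9 and 12 h. UHRF1, a ligase of replicating chromatin, had −1.56, −2.29 and −2.45. CCNF, the F-box protein cyclin F, had −0.95, −1.52 and −2.14, and the replication-stress ligase RFWD3 had −1.05, −1.50 and −1.75. CDCA3, described as an F-box-like adaptor of SCF, had −0.61, −1.22 and −2.003. At 6 and 9 h, 1 gene of the list had risen, FBXL12, by 0.27 and 0.21, where 16.1% and 16.2% of all genes had.

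Genes for substrates of APC/C were lower: 18 of the 19 tested had fallen at 6 h and all 19 at 9 h and at 12 h. Of all genes, 20.6%, 19.1% and 21.4% had fallen at 6, 9 and 12 h. The medians of the substrate genes were −0.72, −1.51 and −2.11. KIFC1, also listed, was too low to test. CDC6, the loader of the replicative helicase, had −2.05, −2.68 and −3.003, CDCA5 (sororin), which protects cohesion, −1.16, −1.93 and −2.58, and cyclin A2 (CCNA2) −0.95, −1.80 and −2.38. RRM2, a subunit of ribonucleotide reductase, had −0.82, −1.59 and −2.17. The 7 spindle checkpoint genes restrain APC/C through CDC20 or, as TRIP13 and MAD2L1BP, help to end that restraint. Of these 7, 6 had fallen at 6 and 9 h and 5 at 12 h, beside the same shares of all genes. Their medians were −0.59, −0.95 and −1.36. BUB1B reached −2.51 and TTK −2.24 at 12 h, and MAD2L1 −1.82. TRIP13 reached −1.36.

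**Figure D4:**
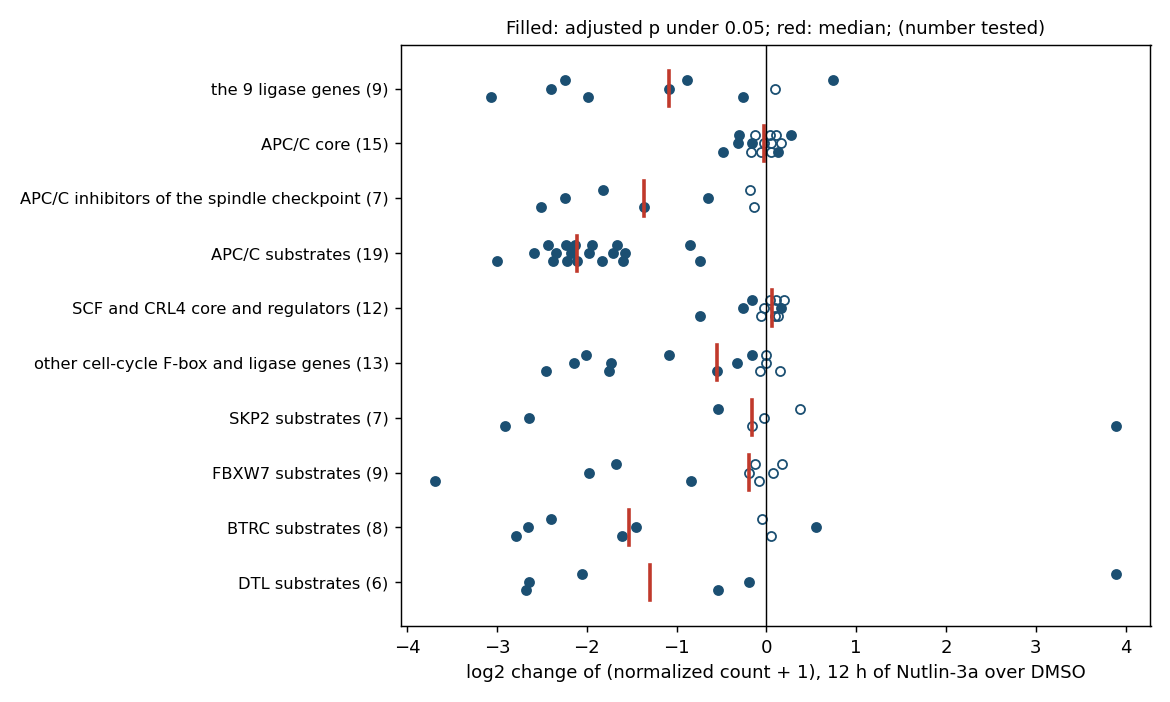
log2 change of normalized count + 1 at 12 h of Nutlin-3a over DMSO (horizontal axis) for the 9 genes and for the lists of related genes, with filled points for adjusted p under 0.05 and a red bar at each median. The medians of APC/C core and SCF and CRL4 core lie near 0, and that of APC/C substrates at −2.11.

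Genes listed for substrates of the cullin ligases had more falls than rises called at 12 h. Of 7 SKP2 substrate genes, 3 had fallen and 1 (CDKN1A) had risen at 12 h, where 21.4% and 18.5% of all genes had. Their median log2 changes were −0.17, −0.17 and −0.17 at 6, 9 and 12 h. ORC1, of the origin recognition complex, had −2.07, −2.67 and −2.91, and the CDK inhibitor CDKN1B had −0.47, −0.65 and −0.54. CDKN1A, a CDK inhibitor and a substrate of both SKP2 and DTL, rose by 3.47, 3.85 and 3.90. Of 6 genes listed for DTL substrates, 5 had fallen and CDKN1A had risen at 12 h, beside the same shares of all genes. The medians of these 6 were −0.69, −1.16 and −1.29 at 6, 9 and 12 h. The list includes PCNA, the platform on which DTL acts. Whether E2F1 and CHAF1A are degraded through DTL in human cells was not checked. The licensing factor CDT1, also listed for both, had −1.64, −2.15 and −2.64, E2F1 had −1.14, −1.95 and −2.67, and the chromatin assembly subunit CHAF1A had −1.48, −1.85 and −2.05.

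Of 9 FBXW7 substrate genes, 5 had fallen and 3 had risen at 6 h, 5 and 1 at 9 h, and 4 and 0 at 12 h. Of all genes, 20.6% had fallen and 16.1% had risen at 6 h, 19.1% and 16.2% at 9 h, and 21.4% and 18.5% at 12 h. The medians of these substrate genes were −0.25, −0.36 and −0.19. The cyclin E genes CCNE2, with −2.17, −3.65 and −3.68, and CCNE1, with −1.45, −1.73 and −1.68, fell at each time, as did MYC, with −0.66, −0.72 and −0.84. AURKA, a mitotic kinase that APC/C also degrades, had −0.85, −1.53 and −1.97. Of 8 BTRC substrate genes, FBXO5 among them, 5 had fallen and 1 had risen at 12 h, beside the same 21.4% and 18.5% of all genes. Their medians were −0.995, −1.36 and −1.53 at 6, 9 and 12 h. The checkpoint mediator CLSPN had −1.55, −2.48 and −2.79, the phosphatase CDC25A −1.86, −2.15 and −2.66 and the kinase WEE1 −0.97, −1.46 and −1.46. PDCD4, a translation inhibitor, rose at 9 and 12 h, by 0.31 and 0.55, and was at 0.11 at 6 h, where it was not called. These values are RNA levels and say nothing of how much of each protein was degraded.

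Likeness was described by Pearson's r of log2(normalized count + 1) over the 8 libraries, among 11460 other genes with a mean of at least 50. The 8 points are 4 groups of 2, so r mostly follows group means. CDC20 was nearest to PLK1 (0.9989), TACC3 (0.9986) and GTSE1 (0.9984), and UBE2C to CDCA3 (0.9992), CCNB2 (0.9984) and TPX2 (0.9983). FBXO5 was nearest to GLUL (0.999), DTL (0.9986) and RFC4 (0.9981), and DTL to FBXO5, XRCC2 (0.9983) and GLUL (0.9981). SKP2 was nearest to ZNF43 (0.9977), FAM111A (0.9974) and GMNN (0.9969). FBXW7 was nearest to PPP4R3A (0.9995), PLCL2 (0.9975) and FBXO22 (0.9928), and UBE2S to CHCHD3 (0.9966), NOD1 (0.9921) and DDX46 (0.9893). FZR1 was nearest to ZNF521 (0.9925), RBMX2 (0.9905) and POP7 (0.9887), and BTRC to COL11A1 (0.9771), PDXDC1 (0.9671) and JCAD (0.9669), the least close matches of the 9. Among the 9 themselves, FBXO5 and DTL were nearest, followed by CDC20 and UBE2C (0.994) and by FBXO5 and SKP2 (0.994), while FBXW7 and BTRC each had a negative r with all of the others, as low as −0.90 for FBXW7 and −0.62 for BTRC, and −0.014 between the 2 of them.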

How the data were processed

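PolyA RNA of 8 libraries was sequenced, and STAR, DESeq2 and the build hg19 are named per the submitters' processing notes. Which tool counted reads, with what strand setting and on which annotation is not given in the sources used here. Gene values come as 1 table deposited by the authors, a normalized signal that is the gene count over each library's size factor. The authors also deposited DESeq2 tables with log2 fold changes of DMSO over Nutlin-3a (sign turned here), p-values, adjusted p-values and a score (the Wald statistic). Those are used only where the authors' deposited table is named. Entries for reads of no single gene, 28.2 to 29.1% of each library's total, were left out.

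All values (100% in each library) came out as whole reads within 1e-06 when divided by the value of 1 read (0.818 to 1.25 normalized counts). The floor of 3 reads was 2.46 to 3.75 normalized counts per library and covers counting error only. Genes reaching 10 normalized counts in at least 2 libraries entered limma 3.58.1 (R 4.3.3, intensity trend, 1 fit of all 8 libraries in 4 groups) on log2(normalized count + 1), a scale that understates changes of low genes. P-values were adjusted by Benjamini and Hochberg over 14074 genes, with a threshold of 0.05; 4 residual and 15.5 prior degrees of freedom entered each test. A value with ± is a log2 change with its SE from this fit, with 2 libraries per group. The variance of each gene is pooled over the 4 groups and drawn toward the intensity trend. The SE of a gene is therefore the same in every comparison and is not the spread of the compared libraries alone. As the DMSO pair differed more than the others, the SE of a change from DMSO may be too small. Alternatives were other pseudocounts (0.5 and 10), filters and scalings, no trend, fits of 2 groups, a replicate block, edgeR 4.0.16 and DESeq2 1.42.0 on recovered reads, the deposited tests, and each library left out. Only the limma step for 12 h against DMSO was run on simulated data. Its spread was the same in all groups, while the DMSO pair here differed more than the others.

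The 9 genes and the lists were chosen with earlier results of these data known, so list counts are descriptions. Named from each list were the 4 genes of smallest p at 12 h and at most 2 called against its majority; MDM2 and CDKN1A served as a check, and likeness names the 3 genes of highest r for each member. FBXL12 was added after values were seen. Aliases (SGOL1 as SGO1, SETD8 as KMT5A) were matched through RefSeq synonyms. Replicate numbers are not said to mark a shared culture. 1 marker gene is not reported here.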

Additional observations from a re-analysis of the deposited data

Results flagged for a closer look

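For each gene, the effect of Nutlin-3a against DMSO was compared between exposure times by the test of the difference itself in the same limma fit (adjusted p under 0.05), and the differences that passed are given here as log2 values, later time minus earlier time. At 9 h against 6 h these were CDC20 (−0.89), FBXO5 (−0.58), UBE2C (−0.67), UBE2S (−0.50), SKP2 (−0.28), BTRC (0.45) and DTL (−0.75). At 12 h against 9 h they were CDC20 (−0.63), FBXO5 (−0.35), UBE2C (−0.75) and DTL (−0.47). At 12 h against 6 h they were CDC20 (−1.52), FBXO5 (−0.93), UBE2C (−1.43), UBE2S (−0.70), SKP2 (−0.45), BTRC (0.38) and DTL (−1.22). BTRC differed upward and the other genes downward, while FZR1 and FBXW7 differed at no pair of times by this test. The 3 pairs of times share libraries, and time of exposure cannot be told apart from time in culture.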

How the results depend on the processing

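Of 234 counts of the 9 genes recomputed under 20 alternatives, 12 moved by more than 1.5 times, and of 1053 single-gene results 43 lost and 5 gained a call and 5, none of them called, changed sign. The count of genes risen at 9 h against DMSO, 2 as reported, was 1 without the intensity trend, with only the compared groups, with DESeq2 and in the deposited tests, and 1 to 2 when each library was left out. The count risen at 12 h against DMSO, 1 as reported, was 2 with quantile normalization. The count fallen at 12 h against 9 h, 4 as reported, was 2 without the intensity trend and 2 to 5 with each library left out, 2 being the value without 12 h replicate 1. FZR1 at 9 h against 6 h was 0.0038 with quantile normalization and −0.0399 to 0.014 with each library left out, and FBXW7 at 12 h against 6 h was −0.1095 to 0.0167. The cause was not tested. Same-numbered libraries did not deviate together (correlations of −0.152 to 0.0914), and a fit with the replicate block changed no count: at 12 h against DMSO 7 genes had fallen and 1 had risen, as without it. Over all genes, the share of calls at 12 h against DMSO that were higher was 46.4%, and 51.7% with TMM and 57.7% with quantile scaling. edgeR on the recovered reads called 2702 lower and 2383 higher at 6 h, 2558 lower and 2547 higher at 9 h and 2817 lower and 3006 higher at 12 h against DMSO. The small changes of FZR1, BTRC and UBE2S at 6 or 9 h rest on 2 libraries per group and lost their calls in the settings named beside them.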

Other observations

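The following genes of the lists were picked after their values were seen. NOTCH1, a receptor whose active fragment FBXW7 targets, had log2 changes from DMSO of 0.60, 0.44 and 0.17 at 6, 9 and 12 h, and was called at 6 and 9 h but not at 12 h (limma, adjusted p = 0.0520). JUN and MCL1, further FBXW7 substrates, had risen at 6 h, by 0.19 and 0.16, and were not called at 9 or 12 h. CTNNB1, which encodes the BTRC substrate beta-catenin, had likewise risen at 6 h (0.18) and was not called later. The deubiquitinase genes USP1 and USP37 had fallen at each time, with −1.02, −1.58 and −1.73 for USP1 and −0.73, −0.97 and −1.08 for USP37. PCNA, the platform on which DTL acts, was not called at 6 or 9 h and had fallen at 12 h, with −0.19 (adjusted p = 0.00663).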
